A study of Homo sapiens with 6 samples.

Results

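The matrix metalloproteinases (MMPs), their tissue inhibitors (TIMPs) and the related ADAM and ADAMTS proteases were examined in IKPRAB36, a line of Ishikawa endometrial cancer cells that carries stably introduced progesterone receptors A and B. A gene was taken as a member when its single annotated symbol was MMP, TIMP, ADAM or ADAMTS followed by a number. The rule gave 64 of the 19775 genes with a single symbol on the array, of which 22 were MMPs, 4 were TIMPs, 20 were ADAMs and 18 were ADAMTS genes. Where several probe sets carried a symbol, the brightest by its mean over the 6 arrays stood for the gene. Another 8 symbols that start alike, such as those of antisense transcripts, and 2 probe sets shared between genes were left out. The members ADAM5 and ADAM6 are annotated as transcribed pseudogenes.

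Affymetrix U133 Plus arrays were run on RNA of 3 replicates cultured for 48 h without and 3 with 1 nM medroxyprogesterone acetate (MPA), a synthetic progestin. Both groups were kept in medium with charcoal-stripped serum, from which most steroid hormones are removed, and with hygromycin and neomycin, which maintain the introduced receptors. The groups are named control 1 to 3 and MPA 1 to 3. All arrays come from 1 cell line, and the sources do not state that the replicates were separate cultures, so that the p-values reflect the variation among these arrays alone, part or all of which may be technical. The comparison asks which metalloproteinase and inhibitor genes differ in expression after culture with a progestin, in a study of how progesterone affects migration of endometrial cancer cells.

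Metalloproteinases hold a zinc ion in their active site. MMPs cleave collagens and other proteins of the extracellular matrix, are made as inactive precursors and are blocked by TIMPs. ADAMs sit in the cell membrane and release the outer part of other membrane proteins, a step called shedding, whereas ADAMTS proteases are secreted and several of them cut large proteoglycans such as versican. In the human endometrium, MMPs act in the tissue breakdown of menstruation, and progesterone is known to restrain several of them, among which MMP7 is made by epithelial cells.

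The median log2 signal of an array was 5.16 to 5.28, and arrays of one group correlated at 0.987 to 0.997. The array MPA 3 differed from the rest in its poly-A spike-in controls, whose log2 signals averaged 6.65 there and 8.24 to 9.04 elsewhere. Its 18S ribosomal RNA controls averaged 7.06, and those of the other arrays 8.09 to 9.44. Of the markers examined, 6 epithelial genes had a mean log2 signal of 11.01 to 11.22 on the control and 10.81 to 11.05 on the MPA arrays. The means of 7 stromal markers were 5.72 to 5.98 and 5.61 to 5.81. Of these, 4 lay under the array median on all arrays, while COL1A1, COL3A1 and DCN lay above it. The leukocyte markers had means of 4.49 to 4.64 on the control and 4.39 to 4.75 on the MPA arrays, and 2 of 3 lay under the median on all arrays. The endothelial markers had means of 4.74 to 4.80 and 4.57 to 4.87, again with 2 of 3 under the median. None of these markers passed the limma test between the groups. SAM, a permutation-based array test, called 3 of the 6 epithelial markers (50%) and 2 of the 7 stromal markers (28.6%) lower. It called 5.23% of all genes in either direction. The epithelial genes CDH1, EPCAM and PAX8 and the collagen genes COL1A1 and COL3A1 were lower with MPA without overlap. Their differences were -0.44 to -0.81 on the log2 scale. The epithelial keratins differed the other way, KRT8 by 0.22 without overlap, KRT19 by 0.27 and KRT18 by 0.02. The part of these markers in the results below was not tested. The introduced receptor gene PGR had a mean log2 signal of 10.2 on the control and 10.7 on the MPA arrays (limma, Benjamini-Hochberg adjusted p = 0.294). Its values were higher with MPA without overlap, at 10.17 to 10.25 on the control and 10.47 to 11.08 on the MPA arrays. The highest came from MPA 3. Since RNA came from whole cultures, fewer cells of a type and less RNA per cell cannot be told apart in any value that follows.

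Among the 64 genes, 3 changed with MPA, and all of them were ADAMTS genes. ADAMTS8 and ADAMTS9 rose and ADAMTS1 fell. No MMP, no TIMP and no ADAM passed the test, although MMP16, ADAM9, ADAM19 and MMP2 differed by more than 0.5 on the log2 scale. A gene was called with limma at a Benjamini-Hochberg adjusted p under 0.05 over all 54613 probe sets, where the group with the higher signal also had to exceed the other by at least 25% on the linear scale, the fold minimum of the study's methods. By this rule 2 of the 64 members (3.12%) were higher, beside 1.74% of all genes, and 1 (1.56%) was lower, beside 1.16% of all genes. The other 61 were not called. The members were evenly split in sign, with 32 positive and 32 negative differences and a median log2 fold change of 0.00, beside 0.02 for all genes. A total of 56 members differed by less than 0.5 on the log2 scale.

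Looser measures gave shares close to or somewhat above those of all genes. The 3 control and 3 MPA values did not overlap for 12 members, 6 in each direction, which is 18.8% beside 16.9% of all genes. An unadjusted limma p under 0.05 was found for 12 members, also 18.8%, beside 11.8%. SAM, a permutation-based array test, called 3 members higher and 2 lower, which is 7.81% beside 5.23%. An exact permutation test of 3 against 3 arrays cannot give a two-sided p below 0.1, so that single genes were judged by the fit over all probe sets.

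**Figure D1:**
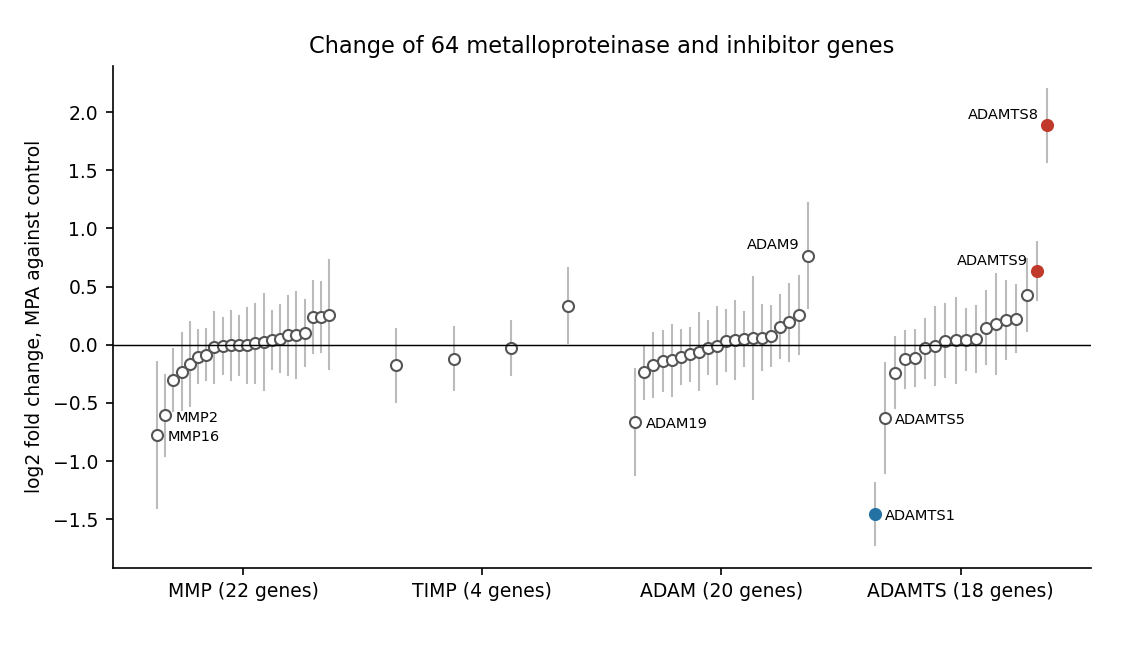
Vertical axis: log2 fold change with MPA relative to control, for the brightest probe set of each of the 64 genes, ordered by value within the 4 families, with the 95% interval of the limma fit as a grey line. Red and blue points are genes called higher and lower, and open points were not called; the 3 called genes are ADAMTS genes, at 1.89, 0.64 and -1.45.

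ADAMTS8, a secreted protease that can cut aggrecan, was the member with the greatest difference. Its log2 signal was 6.55, 6.15 and 6.35 on the control arrays and 8.18, 8.12 and 8.41 on the MPA arrays. The lowest MPA array lay far above the highest control array. ADAMTS8 thus rose by 1.89 on the log2 scale (SE 0.14), or 3.70-fold, in 3 of 3 arrays (limma, adjusted p = 0.000306). Each of its 3 probe sets was called higher, with log2 fold changes of 0.93 to 1.98.

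ADAMTS1, a protease known to be induced by progesterone in the ovary and to cut versican, went the other way. Its log2 signal was 7.52, 7.65 and 7.48 on the control arrays and 5.95, 6.25 and 6.08 on the MPA arrays. The groups were far apart, and the spread within each was small (SD 0.09 and 0.15, n = 3). ADAMTS1 fell by 1.45 on the log2 scale (SE 0.12), a 2.74-fold lower signal (limma, adjusted p = 0.000466). Its other probe set was also called lower, at -1.24. ADAMTS8 and ADAMTS1 were called under all 15 alternative settings, including each array left out in turn.

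ADAMTS9, another protease that cuts versican, showed a smaller difference. Its log2 signal was 7.27, 7.47 and 7.32 on the control arrays and 8.01, 8.07 and 7.89 on the MPA arrays, again without overlap. ADAMTS9 rose by 0.64 on the log2 scale (SE 0.11), or 1.55-fold (limma, adjusted p = 0.0216). This call was less stable. Only 1 of its 4 probe sets was called, with differences from -0.16 to 0.64. The second brightest, at 0.56, had an adjusted p of 0.147 in limma, and the dimmest pair lay under the array median on all arrays. Leaving out control 1 gave an adjusted p of 0.115, and leaving out control 3 gave 0.137. With MPA 1 left out it was 0.123, and with MPA 2 left out 0.0825. The call held when control 2 (0.0295) or MPA 3 (0.0240) was left out.

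**Figure D2:**
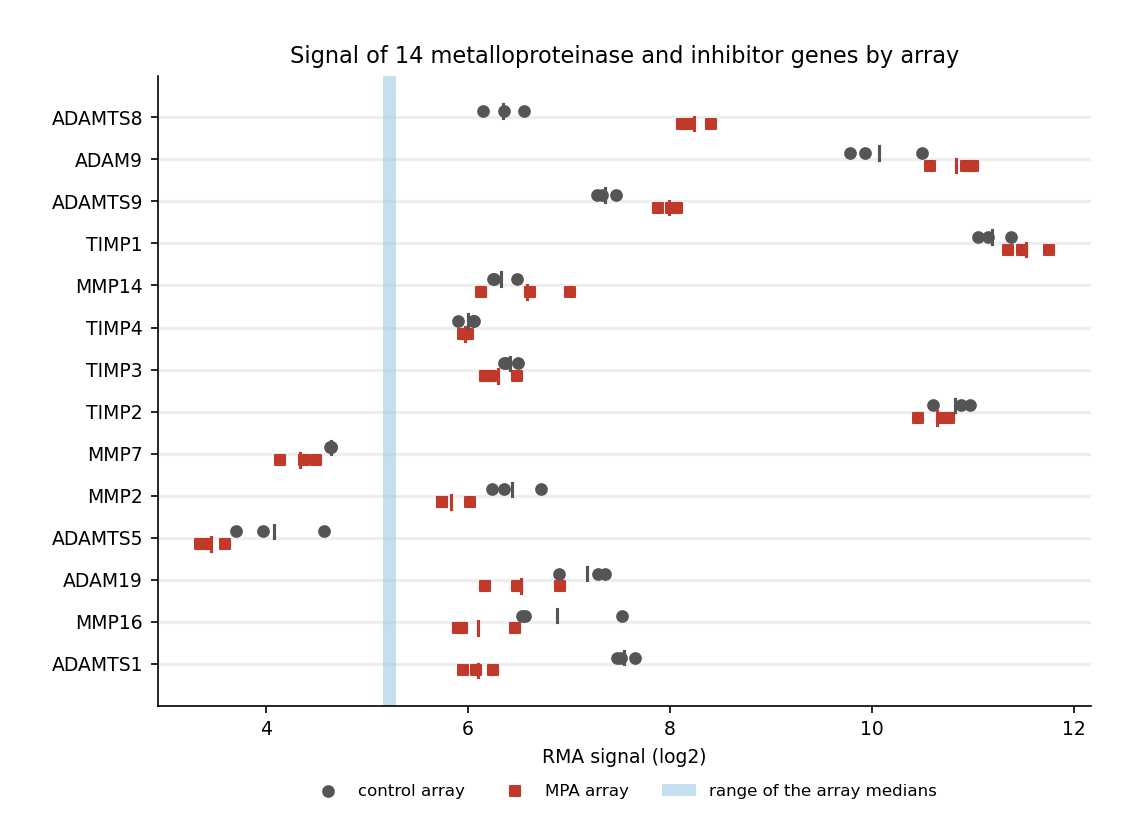
RMA signal on the log2 scale (horizontal axis) of 14 metalloproteinase and inhibitor genes on each of the 3 control arrays (grey circles) and 3 MPA arrays (red squares), with vertical bars at the group means and the range of the array medians in blue. ADAMTS8, ADAMTS9 and ADAMTS1 are clearly separated between the groups, whereas the TIMP genes and MMP14 overlap, and MMP7 and ADAMTS5 lie under the array medians.

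The 3 called genes belong to the 7 ADAMTS proteases that cut proteoglycans such as versican and aggrecan. The group was formed by known activity, with results of these data already seen. In it 5 of 7 genes had control and MPA values without overlap, beside 16.9% of all genes, and their directions were mixed. Since the group was formed after values were seen, this count is a description. ADAMTS15 had log2 signals of 6.65, 6.36 and 6.53 on the control and 6.81, 6.85 and 7.17 on the MPA arrays, a difference of 0.43 that was not called (limma, adjusted p = 0.242). ADAMTS5, a main aggrecan-cutting protease, lay under the array median on all arrays, with 3.97, 4.58 and 3.70 on the control and 3.35, 3.60 and 3.42 on the MPA arrays. Its difference of -0.63 (SE 0.21) was not called (limma, adjusted p = 0.281), although all 4 of its probe sets were negative without overlap, from -0.17 to -0.94. Without control 2 the difference of ADAMTS5 was -0.38. ADAMTS4 differed by 0.05 and ADAMTS20 by -0.12, both with overlapping groups. ADAMTS2, ADAMTS3 and ADAMTS14, which trim procollagens, differed by -0.01 to 0.21, and the 8 other ADAMTS genes by -0.24 to 0.22. None of these 11 was called.

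Neighbouring genes on the chromosome were compared as a description. ADAMTS1 and ADAMTS5 lie next to each other on chromosome 21, and both had lower signals with MPA, but ADAMTS5 was not called. On the other side of ADAMTS1, CYYR1 differed by 0.08 and APP by -0.30. ADAMTS8 and ADAMTS15 are neighbours on chromosome 11, and both had higher signals, but of this pair ADAMTS15 was not called. Beyond them, ZBTB44, ST14 and SNX19 differed by -0.35, -0.43 and 0.03. Next to ADAMTS9 on chromosome 3, PRICKLE2, a planar cell polarity gene, fell by 0.69 on the log2 scale (limma, adjusted p = 0.0388), opposite to ADAMTS9. PSMD6 and SLC25A26 in the same region differed by 0.17 and -0.06.

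**Figure D3:**
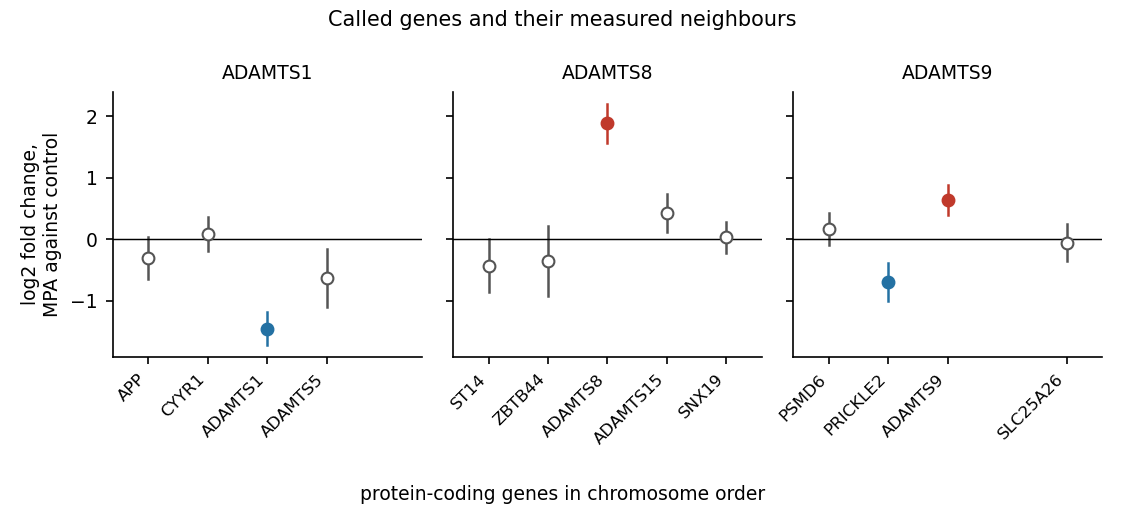
Log2 fold change of MPA against control (vertical axis) with the 95% interval for ADAMTS1, ADAMTS8 and ADAMTS9 and for the protein-coding genes measured up to 2 places away, in chromosome order. Filled points were called higher (red) or lower (blue); PRICKLE2 at -0.69 is the only called neighbour, and ADAMTS5 and ADAMTS15 stand on the same side of 0 as the called gene beside them.

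MMP7, also called matrilysin, is the MMP of glandular epithelium, and MMP14 is the membrane-type MMP that activates MMP2. Their promoters are shown because progesterone is known to restrain MMP7 expression in endometrium. The study, however, names MMP7 among genes that the literature describes as raised by progesterone. The sequences are from RefSeq on GRCh38.p14, from 250 bases before to 30 bases after the gene start, written 5' to 3' on the coding strand. MMP7 lies on the minus strand at chr11:102530718-102530997, and MMP14 on the plus strand at chr14:22836335-22836614. Capitals mark the AP-1 motif TGAGTCA, which binds FOS and JUN factors, and the steroid receptor half-site TGTTCT or its reverse complement AGAACA.
MMP7: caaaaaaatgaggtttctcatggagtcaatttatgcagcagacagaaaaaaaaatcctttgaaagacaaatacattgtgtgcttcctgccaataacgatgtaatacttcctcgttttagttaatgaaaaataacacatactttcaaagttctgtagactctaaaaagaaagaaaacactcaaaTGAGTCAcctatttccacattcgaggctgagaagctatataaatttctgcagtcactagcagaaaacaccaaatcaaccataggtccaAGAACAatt
MMP14: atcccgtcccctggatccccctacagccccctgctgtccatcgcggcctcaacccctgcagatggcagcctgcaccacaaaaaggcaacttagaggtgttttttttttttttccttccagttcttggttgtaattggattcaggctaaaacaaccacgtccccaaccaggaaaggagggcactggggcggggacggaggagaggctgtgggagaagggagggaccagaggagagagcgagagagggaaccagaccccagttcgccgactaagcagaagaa
The MMP7 sequence held an AP-1 motif starting 67 bases before the gene start and a half-site in reverse orientation at base 22 after it, and the MMP14 sequence held neither. Windows from 250 bases before to 50 bases after the start were found for 36 members, and 1 of these genes had a pair of windows. ADAMTS1, ADAMTS8 and ADAMTS9 were not among these members, so that every window belongs to a gene that was not called. Of these 37 windows, 16.2% held a half-site, beside 14.8% of 35116 windows of all genes, and 2.70% an AP-1 motif, beside 4.95%. The AP-1 share stands for 1 window, that of MMP7 shown above, and this motif was added after the sequences were seen. Such matches are a description of the letters and show no binding.

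MMP7 was dim and differed little. Its log2 signal was 4.65, 4.64 and 4.63 on the control arrays and 4.49, 4.14 and 4.37 on the MPA arrays, under the array median on all 6. The MPA values were lower without overlap, but the difference of -0.30 (95% interval -0.57 to -0.03, without adjustment for the number of probe sets) did not pass the test (limma, adjusted p = 0.397). MMP14 gave log2 signals of 6.48, 6.25 and 6.26 on the control arrays and 6.62, 6.13 and 7.01 on the MPA arrays, so that the control values lay inside the range of the MPA values. Its difference was 0.26 (95% interval -0.21 to 0.73; limma, adjusted p = 0.802). All 4 of its probe sets were positive, from 0.09 to 0.26. The highest value came from MPA 3, and without this array the difference of MMP14 was 0.05.

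The greatest differences among MMPs were seen for MMP16 and MMP2. MMP16, a membrane-type MMP, had log2 signals of 6.54, 7.53 and 6.57 on the control arrays and 5.94, 6.47 and 5.90 on the MPA arrays. The groups did not overlap, but control 2 stood well above the other controls, and the difference of -0.78 (SE 0.27) was not called (limma, adjusted p = 0.326). Without control 2 the difference of MMP16 was -0.45. MPA 2 was likewise the highest of the MPA arrays. With replicate number as a block, limma called MMP16 lower (adjusted p = 0.00538). The sources do not state that arrays of the same number were paired. The 5 probe sets of MMP16 ranged from -0.78 to 0.03. MMP2, a gelatinase that degrades type IV collagen, had 6.36, 6.24 and 6.72 on the control arrays and 5.74, 5.74 and 6.02 on the MPA arrays. All MPA values were below all control values. The difference of -0.61 (SE 0.15) was called by SAM and by limma with replicate number as a block, but not by limma without it (adjusted p = 0.122). The other 2 probe sets of MMP2, both under the array median on all arrays, differed by 0.03 and -0.03.

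The remaining MMPs differed little. MMP9, the other gelatinase, differed by 0.01 and lay near the array median. The collagenases MMP1, MMP8 and MMP13 differed by 0.04 to 0.24, and the stromelysin group by -0.16 for MMP11 to 0.08 for MMP10. MMP15 and MMP24, further membrane-type MMPs, differed by 0.02 and 0.24. The long arm of chromosome 11 holds a cluster of MMP genes, among them MMP1, MMP3 and MMP7, and all 9 members of this cluster lay under the array median on all arrays. None of them was called, and their differences were -0.30 to 0.24. Of all members, 25 lay under the array median on every array and 35 above it on every array, and the 3 called genes were among the latter. Such a position is a property of a probe set as well as of its transcript, and gives no order of expression between genes.

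The inhibitors did not pass the test either. TIMP1, which blocks most soluble MMPs, had log2 signals of 11.37, 11.05 and 11.15 on the control arrays and 11.48, 11.34 and 11.75 on the MPA arrays. MPA 2 lay below control 1, so that the groups overlapped, and the difference was 0.34 (95% interval 0.01 to 0.66; limma, adjusted p = 0.455). It was 0.22 without MPA 3. TIMP2, which also takes part in the activation of MMP2 by MMP14, had 10.88, 10.60 and 10.97 on the control arrays and 10.72, 10.45 and 10.76 on the MPA arrays, with a difference of -0.18 (95% interval -0.49 to 0.14; limma, adjusted p = 0.796). All 3 probe sets of TIMP2 were negative, from -0.18 to -0.31. TIMP3, which binds to the matrix and also blocks ADAM17, had 6.49, 6.36 and 6.38 on the control arrays and 6.23, 6.17 and 6.48 on the MPA arrays. The groups overlapped, and the difference was -0.12 (95% interval -0.39 to 0.15). TIMP4 had 6.06, 5.90 and 6.05 on the control arrays and 5.95, 6.004 and 5.96 on the MPA arrays, a difference of -0.03 (95% interval -0.26 to 0.20). The intervals of the brightest probe sets of these TIMP genes thus reached at most 0.66 upward and -0.49 downward. Those of dimmer probe sets reached further, to 0.83 for TIMP3 and to -0.70 for TIMP2. The 4 probe sets of TIMP3 differed by -0.22 to 0.36, and none was called.

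Among the ADAMs, ADAM9 and ADAM19 differed most. ADAM9, a membrane protease that can shed growth factors such as HBEGF, had log2 signals of 9.78, 10.50 and 9.93 on the control arrays and 10.93, 11.002 and 10.58 on the MPA arrays. The groups were close but did not overlap. The difference of 0.77 (SE 0.20), or 1.70-fold, was called by SAM but not by limma on all arrays without a replicate block (adjusted p = 0.137). Limma called it without control 2 (adjusted p = 0.0198) and with replicate number as a block. All 3 probe sets of ADAM9 were positive without overlap, from 0.28 to 1.02. ADAM19, known for the shedding of neuregulins, had 7.35, 6.90 and 7.29 on the control arrays and 6.49, 6.17 and 6.91 on the MPA arrays. MPA 3 was just above control 2, and the difference of -0.66 (SE 0.20) was not called (limma, adjusted p = 0.221). Its other probe set, under the array median on all arrays, differed by 0.14.

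The 2 most studied sheddases showed little difference in their brightest probe sets. ADAM10, which cuts Notch receptors and cadherins, differed by 0.06 (95% interval -0.47 to 0.58), and ADAM17, which releases TNF and ligands of the EGF receptor, by -0.08 (95% interval -0.31 to 0.15). The 3 probe sets of ADAM17 ranged from -0.08 to 0.32. The dimmest, at 0.32, was higher with MPA without overlap but was not called. ADAM15 differed by -0.06. ADAM11, ADAM22 and ADAM23, which lack a working active site, differed by 0.08, -0.01 and -0.24. Of these brightest probe sets, only that of ADAM23 was without overlap. The 8 probe sets of ADAM22 ranged from -0.18 to 0.29, and 2 of them were without overlap, in opposite directions. The 8 ADAMs of testis and pseudogenes ranged from -0.13 for ADAM20 to 0.26 for ADAM6, and 7 of them lay under the array median on all arrays.

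Many members are measured by several probe sets, 145 in all for the 64 genes. Of these, 6 were called, which is to be read beside 2.03% of all probe sets called in either direction. The 6 belong to ADAMTS8, ADAMTS1 and ADAMTS9, and no member had a called probe set when its brightest one was not called. Of the 43 members with several probe sets, 23 had all of them on the same side of 0.

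**Figure D4:**
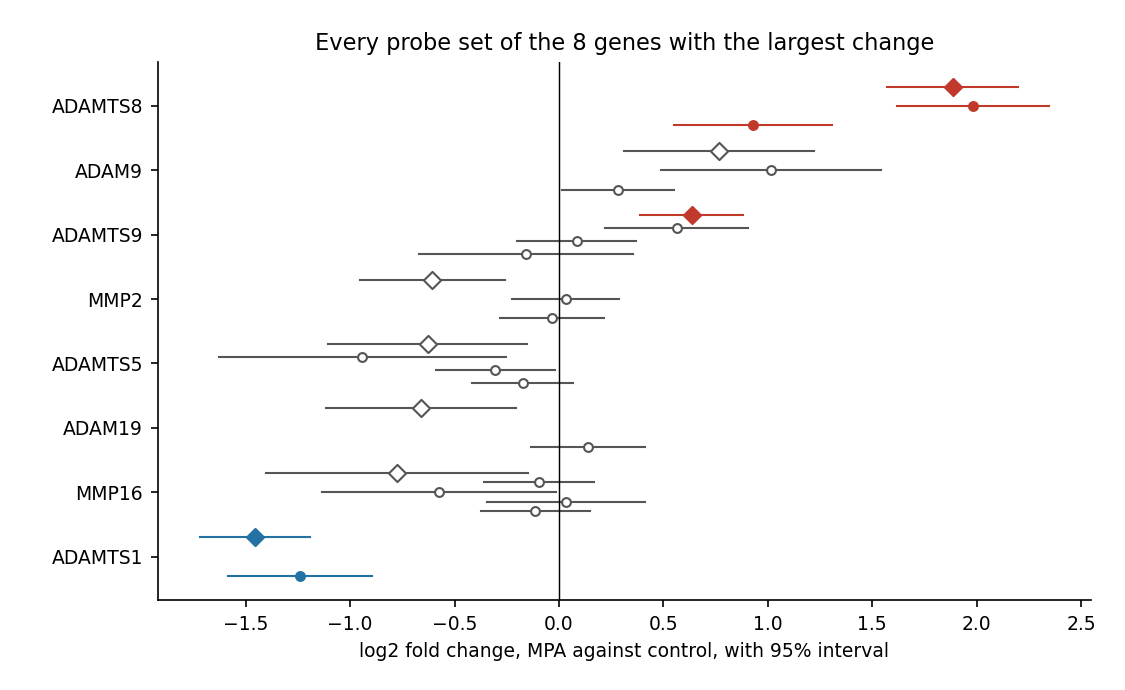
Log2 fold change of MPA against control with the 95% interval (horizontal axis) for every probe set of the 8 genes with the largest difference, the 3 called genes and 5 that were not called. Diamonds are the brightest probe set of a gene and circles the others; filled symbols were called, and the probe sets of ADAMTS8, ADAM9, ADAMTS5 and ADAMTS1 stand on one side of 0, while those of ADAMTS9, MMP2, ADAM19 and MMP16 fall on both.

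Genes that act with these proteases were examined as well, of which 53 of 55 were measured. Of these, 1 rose (1.89%, beside 1.74% of all genes) and 2 fell (3.77%, beside 1.16%), and their median log2 fold change was -0.02. Among 20 activators and inhibitors, SPOCK1, a testican proteoglycan that has been described as an inhibitor of MMP activation, rose. Its log2 signal was 6.46, 6.53 and 6.42 on the control arrays and 8.16, 7.98 and 8.21 on the MPA arrays, a rise of 1.65 (SE 0.11; limma, adjusted p = 0.000185). The other 19 were not called, among them RECK, a membrane-bound MMP inhibitor, at -0.03, and FURIN, which activates precursors of MT-MMPs and ADAMs, at 0.41. None of the 14 measured ADAMTS-like genes and other metzincins was called.

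Among 19 measured substrates, VCAN and L1CAM fell, which is 10.5% beside 1.16% of all genes, in a list chosen with earlier results known. VCAN encodes versican, the proteoglycan cut by ADAMTS1 and ADAMTS9, and had log2 signals of 10.84, 11.27 and 11.04 on the control arrays and 10.41, 10.17 and 10.38 on the MPA arrays. It fell by 0.73 on the log2 scale (SE 0.14; limma, adjusted p = 0.0344). L1CAM, an adhesion molecule shed by ADAM10, had 8.80, 8.38 and 8.67 on the control arrays and 7.62, 7.75 and 7.81 on the MPA arrays, and fell by 0.89 (SE 0.13; limma, adjusted p = 0.0118). Both sets of values were without overlap. Of the 6 fits that left out an array, the call of VCAN held only without control 1, with adjusted p-values up to 0.164 in the others. That of L1CAM held without control 2, MPA 2 or MPA 3 and was lost without control 1, control 3 or MPA 1 (adjusted p up to 0.0819). KITLG, a membrane-bound growth factor, had the greatest difference of the substrates, -1.35, but a wide spread (SE 0.32). It was called lower by SAM but not by limma without a replicate block (adjusted p = 0.104). With replicate number as a block, limma called it lower (adjusted p = 0.000223). HBEGF, the growth factor shed by several ADAMs, differed by 0.43 (adjusted p = 0.143 in limma).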

How the data were processed

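IKPRAB36 RNA was measured on 6 arrays, 3 control and 3 MPA, which the labels name. The deposited values are log2 signals that the authors made with RMA, that is, background corrected, normalized between arrays and summarized per probe set. The version of the RMA software is not given in the sources. Of 54675 probe sets, 62 Affymetrix controls were left out of the tests. Symbols came from the platform annotation, updated through Entrez identifiers. Neither the members nor the related gene lists were chosen blind: earlier results of these data were known. Protein sequences were not used here. The AP-1 motif was added to the motif search after the sequences were seen.

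The test was limma 3.58.1 in R 4.3.3, by lmFit and eBayes without covariates, two-sided, adjusted by Benjamini-Hochberg over 54613 probe sets. The 95% intervals are unadjusted. The steps were tested on simulated data. Values were given in full for called members, MMP7, MMP14, every TIMP and the 5 uncalled members with the largest difference; others were named for their role, among them the neighbours of called genes, which were chosen after the values were seen. Alternatives were SAM (delta 0.53, 20 relabelings), a replicate block, an intensity trend, other fold minima and a filter on dim probe sets. Further ones were quantile and housekeeping scaling, the mean of all probe sets, and each array left out. SAM is the test named in the study's methods, but it was written here from its description and not run in the study's software. Precision is limited by 3 arrays per group.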

Additional observations from a re-analysis of the deposited data

How the results depend on the processing

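ADAMTS8, ADAMTS1 and SPOCK1 kept their direction and call under all 15 alternatives. The higher members numbered 1 with a 2-fold minimum, 1 with the mean of all probe sets and 1 to 3 with an array left out. The lost gene was ADAMTS9 (log2 fold change 0.28, adjusted p 0.3597 with the mean of all probe sets), and the added one, without control 2, was ADAM9. The lower members numbered 2 in SAM, which added MMP2. Of the related genes, SAM called 2 higher, adding HBEGF, and the mean of all probe sets 2, adding PAPLN; lower calls numbered 0 with a 2-fold minimum and 0 to 1 with an array left out, against 2. The mean of all probe sets also called 2 lower, but with CX3CL1 in place of L1CAM. The filter on dim probe sets kept 36 members and changed no count. The cause was not tested, apart from the lower fold of these genes under the 2-fold minimum. Whether arrays with the same replicate number were paired is not stated in the sources. Deviations of arrays with the same number correlated at -0.02, 0.52 and 0.33 for replicates 1, 2 and 3. The MPA array most like a control array had the same number for replicates 2 and 3, but not for replicate 1. These values do not settle whether the arrays were paired. With the replicate block, 5 members were lower, namely ADAMTS1, MMP2, MMP16, ADAM19 and ADAMTS5, and 3 were higher, with ADAM9 added; KITLG joined the lower related genes there and in SAM. On the whole array, the reported fit gave 663 higher and 444 lower probe sets, against 1208 and 825 with the block, 1313 and 868 in SAM, 357 and 153 with a 2-fold minimum, and 353 to 725 and 156 to 465 with an array left out.

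Among the members named by the rule, sign changed for 8, each with a reported difference of -0.16 to 0.06. With the mean of all probe sets TIMP3 was at 0.00392, ADAM17 at 0.0599, MMP11 at 0.0220 and MMP15 at -0.0282. With a second quantile normalization MMP9 was at -0.00925 and MMP15 at -0.00105, and with housekeeping scaling MMP9 was at -0.0440, MMP15 at -0.0340 and ADAMTS4 at -0.00514. With an array left out, ADAM10 ranged from -0.10 to 0.32, ADAM15 from -0.173 to 0.0690, MMP9 from -0.11 to 0.13, MMP15 from -0.18 to 0.19 and ADAMTS4 from -0.0323 to 0.156. Of the 8 members that differed by 0.5 or more, 5 were not called with 3 arrays per group, and 25 members lay under the array median on all arrays.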
